A study of Mus musculus with 8 samples.

Results

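The genes of the neurotrophins, their Trk and p75 receptors and the receptors of the GDNF family were read in striatum of WT and 16p11.2+/- mice. The 8 genes were Bdnf, Ntf3, Ntrk2, Ntrk3, Ngfr, Gfra1, Gfra2 and Ret, chosen by symbol from a list, and all 8 were found among 55032 listed genes. Total RNA of striatum was sequenced from 8 females on the C57BL/6 strain at postnatal day 60, 4 of them WT and 4 of them 16p11.2+/-, with 1 library for each. The 16p11.2+/- mice, labelled DF, carry 1 copy of the mouse interval that matches human 16p11.2 and came from a line bought in from a repository and kept on this background. The labels name no treatment, and whether WT mice were littermates is not given in the sources used here. The gene counts of a mouse summed to 15125051 to 16523429 reads.

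Neurotrophins are secreted proteins that keep neurons alive and adjust their synapses. BDNF signals through TrkB, which Ntrk2 encodes, NT-3 signals mainly through TrkC, which Ntrk3 encodes, and both also bind the p75 receptor, which Ngfr encodes. The GDNF family uses a binding subunit, GFRα1 for GDNF and GFRα2 for neurturin, which presents the ligand to the RET tyrosine kinase. Adult striatal neurons transcribe little Bdnf themselves and receive most BDNF protein from axons of other regions, mainly the cortex, while p75 is found chiefly on cholinergic neurons of the basal forebrain.

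No difference between the genotypes passed the test for any of the 8 genes. Of the 7 genes that passed the filter on low counts, 0 had an adjusted p under 0.05 in edgeR's quasi-likelihood test, against 0.109% of all 18294 genes tested, and 0 had an unadjusted p under 0.05, against 4.32% of all. DESeq2 and limma-voom also called 0 of them. The FPKM of WT and 16p11.2+/- mice overlapped for each of the 8 genes. Groups without overlap were found for only 2.83% of all tested genes, so this does not set the 8 genes apart. Between single mice, in contrast, Bdnf differed 21.8-fold, Ngfr 14.2-fold, Ret 6.50-fold and Gfra2 4.17-fold in FPKM, which is fragments per kilobase of gene length, scaled to the total counts of the mouse. Ntrk2 differed only 1.33-fold.

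Markers of cell types showed that the pieces of tissue were not alike, and these libraries stood apart before any comparison. The summed FPKM of 10 genes of medium spiny neurons, the main neurons of the striatum (Drd1, Drd2, Ppp1r1b and others), was between 884 and 1483 in WT mice and 1388 and 1285 in DF-1018 and DF-1059, but 356 in DF-1037 and 295 in DF-1062. None of these genes was at 0 in any mouse. The mean log2 CPM (counts scaled to the library total, on a log2 scale) of 8 thalamus genes was between 2.93 and 3.64 in WT-1015, WT-1041, WT-1061 and DF-1059. It was between 5.66 and 6.71 in WT-1063, DF-1018, DF-1037 and DF-1062. Cortical glutamatergic genes were highest in DF-1037 (5.83), WT-1041 (5.68) and WT-1015 (5.41), and were between 1.67 and 2.20 in DF-1018, WT-1063 and DF-1062. Cux2, a gene of this list, did not follow that order. Its FPKM was 10.2 in DF-1037, but 6.18 in WT-1063, 6.05 in DF-1062 and 4.17 in DF-1018 against 3.40 in WT-1041 and 2.56 in WT-1015. Ttr, a choroid plexus gene, had an FPKM of 4273 in WT-1063 and 453 in WT-1015, against 1.12 to 117 in the other mice. The deleted interval served as a check of the labels: Mapk3, which lies in it, had an FPKM between 35.7 and 46.4 in WT mice and between 20.7 and 22.3 in 16p11.2+/- mice. The summed FPKM of 9 genes of mature oligodendrocytes, the myelin-forming cells, differed between the genotypes without overlap, with 1966 to 2313 in WT and 1260 to 1744 in 16p11.2+/- mice. From RNA of bulk tissue alone, fewer cells of a type and less RNA per cell cannot be told apart. By immunostaining of striatum at the same age, the paper reports no difference in the number of mature oligodendrocytes between the genotypes.

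**Figure D1:**
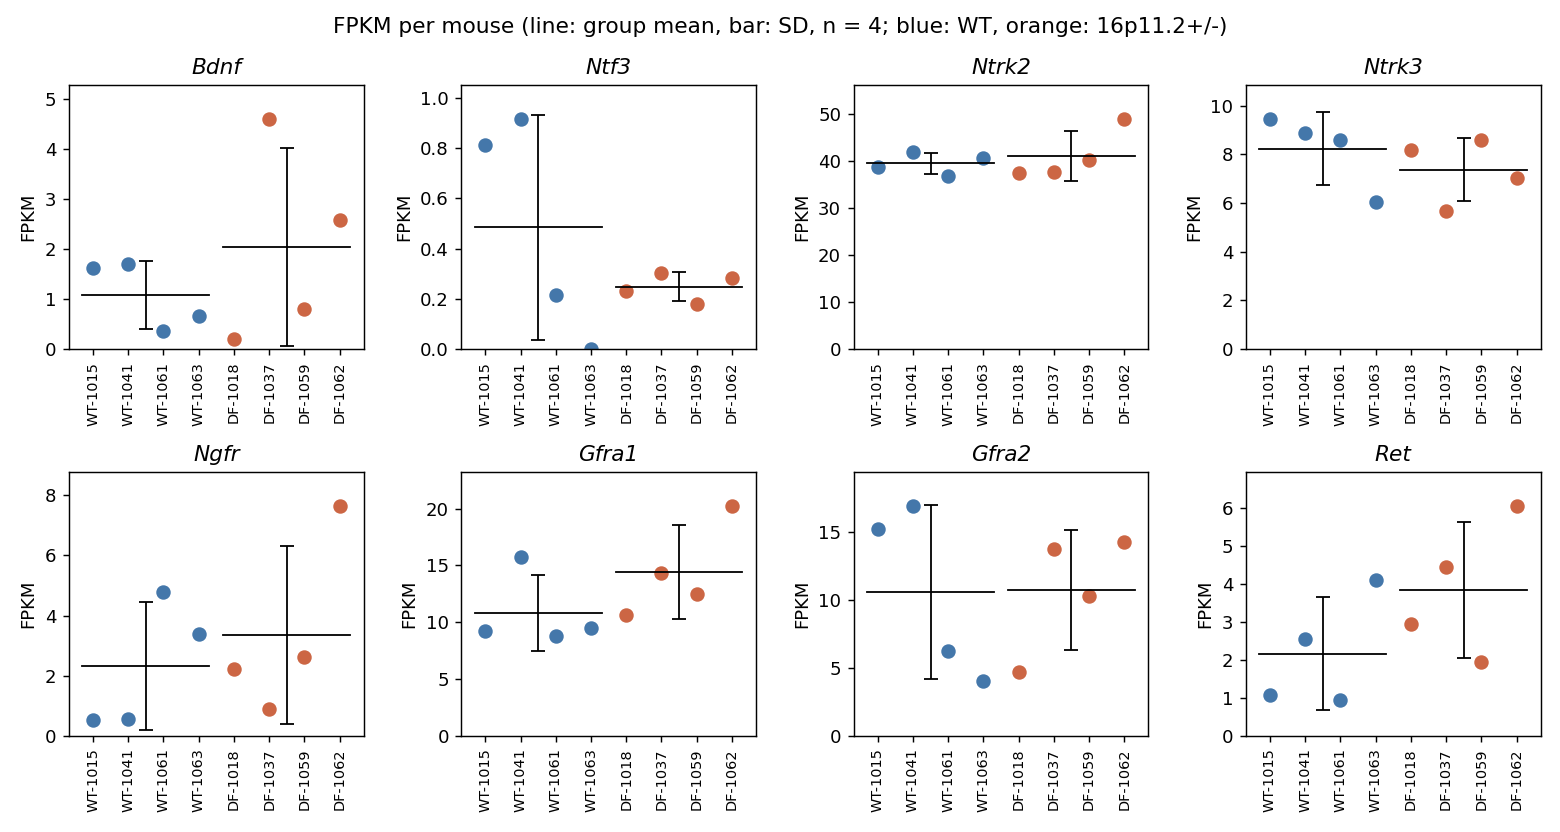
FPKM of the 8 genes in each mouse, with a separate vertical axis from 0 for each gene. Points are mice (blue for WT, orange for 16p11.2+/-), lines are group means and bars are SD (n = 4). The groups overlap in every panel, and Bdnf spans 0.211 to 4.60 while Ntrk2 spans 36.8 to 48.9.

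The order of the levels over the 8 mice was Ntrk2, Gfra1, Gfra2, Ntrk3, Ret, Ngfr, Bdnf and Ntf3. The receptor Ntrk2 had a mean FPKM of 40.3 ± 3.89 (SD, n = 8 mice) and lay above Gfra1 (12.6 ± 3.98, SD, n = 8) in all 8 mice. Gfra1 exceeded Gfra2 (10.7 ± 5.09, SD, n = 8) in 6 mice and Gfra2 exceeded Ntrk3 (7.80 ± 1.38, SD, n = 8) in 5 mice, so that these neighbours did not differ beyond their spread. Ntrk3 was above Ret (3.005 ± 1.77, SD, n = 8) in all 8 mice. Ret was above Ngfr (2.83 ± 2.45, SD, n = 8) in 5 mice and Ngfr above Bdnf (1.57 ± 1.46, SD, n = 8) in 5 mice, again within their spread. Bdnf was above Ntf3 (0.367 ± 0.320, SD, n = 8) in 7 mice. FPKM divides by the length of all annotated exons of a gene, which was 30170 bases for Ntrk3 and 19292 for Ntrk2 against 1714 for Ntf3. Truncated and full-length TrkB and TrkC, which differ in their kinase part, are summed in the gene values.

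Bdnf (ENSMUSG00000048482), the ligand of TrkB, lies on chromosome 2 from 109674700 to 109727007 on the forward strand (GENCODE M21, GRCm38). It has several start sites, each with its own first exon, and RefSeq (GRCm38.p6) lists 7 windows of 250 bases before to 50 bases after a Bdnf start. The letters ACGTCA were searched on both strands, as part of the element bound by the activity-driven factor CREB, and were found in 1 of the 7 windows, against 7.51% of 32851 windows of all genes. The stretch is shown because Bdnf varied more between mice than the other 6 members tested, and the counts add up transcripts from all of its starts. It lies at chr2:109692350-109692435 on the forward strand, ends at the base before the start at 109692436, and the capitals mark the match, which begins 36 bases before that start.
Bdnf: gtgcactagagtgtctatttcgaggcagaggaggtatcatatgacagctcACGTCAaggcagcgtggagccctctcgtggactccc
A match of letters describes the sequence and not a bound site. Of the 8 genes, 5 had such windows, and of their 12 windows no other held these letters.

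In WT mice the FPKM of Bdnf was 1.63 in WT-1015, 1.71 in WT-1041, 0.353 in WT-1061 and 0.657 in WT-1063. In 16p11.2+/- mice it was 0.211 in DF-1018, 4.60 in DF-1037, 0.801 in DF-1059 and 2.58 in DF-1062. The highest mice, DF-1037 and DF-1062, were those with the lowest medium spiny neuron markers, and the lowest mouse of all was also a 16p11.2+/- mouse. The means were 1.09 ± 0.684 for WT against 2.05 ± 1.98 for 16p11.2+/- mice (SD, n = 4 each, exact two-sided permutation p = 0.429). In edgeR the log2 fold change was 0.88 (SE 0.82, 95% interval from -0.98 to 2.75, adjusted p = 0.862 over all genes). Its direction rested on these mice: with DF-1037 and DF-1062 both left out it was -1.10, while without DF-1037 alone it was 0.09. Because these mice had the highest Bdnf, leaving them out lowers the estimate whatever their tissue makeup, whose part was not tested. With the medium spiny neuron markers as a covariate the log2 fold change was -0.69. It was 0.44 with limma-voom and 0.44 with the thalamus markers as a covariate. Of the exon sequence of Bdnf, 14.4% overlaps Gm45346 on the opposite strand, and reads there cannot be told apart without a strand setting.

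Across the 8 mice the tested genes closest to Bdnf in log2 CPM were AC078895.1 (Pearson's r = 0.980), Klc1, a kinesin light chain (r = 0.969), and Apba2, a neuronal adaptor (r = 0.969), picked as the closest of all genes over only 8 libraries. The spread of Bdnf within the groups (SD of log2 CPM 1.53) was larger than in 99.1% of all tested genes, with 20 reads in the lowest mouse. It was high in the 3 mice with the highest cortical markers (FPKM 1.63 to 4.60), but also in DF-1062, whose cortical markers were among the 3 lowest.

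Ntf3 (ENSMUSG00000049107), the gene of the TrkC ligand NT-3, lies on chromosome 6 from 126101412 to 126166910 on the reverse strand, and it was the 1 gene that failed the filter on low counts. Its counts were 21, 24, 6 and 0 in WT-1015, WT-1041, WT-1061 and WT-1063, and 6, 8, 5 and 8 in DF-1018, DF-1037, DF-1059 and DF-1062. The 0 of 16165847 reads in WT-1063 allows up to 3 reads, or an FPKM of 0.108, for counting error only. WT-1015 and WT-1041 were the only mice with more than 8 reads. The FPKM was 0.484 ± 0.447 for WT against 0.249 ± 0.0559 for 16p11.2+/- mice (SD, n = 4 each, exact two-sided permutation p = 0.400). The difference of the means, -0.235, was -0.0923 without WT-1041, -0.127 without WT-1015 and -0.397 without WT-1063. Fitted with no filter, its log2 fold change was -0.96 (SE 0.78, adjusted p = 0.743 in edgeR).

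Ntrk2 (ENSMUSG00000055254), the TrkB gene, on chromosome 13 from 58806569 to 59133970 (forward strand), had between 11028 and 15586 reads per mouse. Its FPKM was 38.7, 41.9, 36.8 and 40.6 in WT-1015, WT-1041, WT-1061 and WT-1063, and 37.5, 37.7, 40.2 and 48.9 in DF-1018, DF-1037, DF-1059 and DF-1062. All mice but DF-1062 lay within the range from 36.8 to 41.9. The means of 39.5 ± 2.21 for WT against 41.1 ± 5.36 for 16p11.2+/- mice (SD, n = 4 each, exact two-sided permutation p = 0.771) differed by less than this spread. The edgeR estimate of the log2 fold change was 0.03 (SE 0.10, 95% interval from -0.19 to 0.25, adjusted p = 0.949). It was -0.02 without DF-1062. Of the 7 tested members Ntrk2 varied least, with a spread within groups (SD of log2 CPM 0.104) that was larger than in only 12.4% of the tested genes.

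Ntrk3 (ENSMUSG00000059146), the TrkC gene, lies on the reverse strand of chromosome 7 from 78175959 to 78738012, the chromosome that also carries the deleted interval. In WT-1015, WT-1041, WT-1061 and WT-1063 its FPKM was 9.44, 8.86, 8.58 and 6.05, and in DF-1018, DF-1037, DF-1059 and DF-1062 it was 8.17, 5.69, 8.61 and 7.02. The 3 lowest mice, DF-1037, WT-1063 and DF-1062, were also the 3 mice with the highest thalamus markers and the 3 with the lowest medium spiny neuron markers. The means were 8.23 ± 1.499 for WT against 7.37 ± 1.31 for 16p11.2+/- mice (SD, n = 4 each, exact two-sided permutation p = 0.400). The log2 fold change of -0.18 (SE 0.18, 95% interval from -0.58 to 0.22) had an edgeR p of 0.865 adjusted over all genes. Leaving out 1 mouse moved it to between -0.30 (without WT-1063) and -0.07 (without DF-1037). It was 0.08 with the thalamus markers as a covariate and 0.03 with DF-1037 and DF-1062 left out. Beyond these fits, the part of the tissue makeup in its values was not tested. Cacna1e, a calcium channel gene, Gm14698 and Atp8a1, a phospholipid flippase gene, were closest to it over the 8 mice, with r = 0.980, 0.979 and 0.977.

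Ngfr (ENSMUSG00000000120), the p75 gene, on chromosome 11 from 95568818 to 95587735 (reverse strand), differed widely between mice within both genotypes. Its FPKM was 0.537 in WT-1015 and 0.549 in WT-1041, but 4.78 in WT-1061 and 3.39 in WT-1063. In DF-1018, DF-1037, DF-1059 and DF-1062 it was 2.21, 0.889, 2.62 and 7.64. The 3 mice with an FPKM under 1 were also the 3 with the lowest level of 7 cholinergic neuron genes (mean log2 CPM 2.37 to 2.98, against 3.69 to 4.66 in the other 5). The means were 2.32 ± 2.12 for WT against 3.34 ± 2.96 for 16p11.2+/- mice (SD, n = 4 each, exact two-sided permutation p = 0.657). The edgeR log2 fold change of 0.48 had a wide interval (SE 0.81, 95% interval from -1.37 to 2.32, adjusted p = 0.912). Without DF-1062 it was -0.27, and with the cholinergic markers as a covariate -0.06.

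Over the 8 mice the log2 CPM of Ngfr was higher where the cholinergic list was higher (Pearson's r = 0.881 with an exact permutation p of 0.00570, Spearman's rho = 0.786 with one of 0.0279). Leaving out the 2 mice at the extremes of the list (farthest from its median) gave r = 0.898, and after subtraction of the group means it was 0.872. Of 63 such relations tested, between the 7 genes and the 9 lists whose values did not fall into separate clusters, 0 passed after adjustment, and the adjusted permutation p of this one was 0.180 for r and 0.579 for rho. The only relation with a smaller permutation p was that of Ntrk2 with 6 microglia genes (r = -0.924, p = 0.00394, rho = -0.905, p = 0.00456, adjusted 0.180 and 0.288, with r = -0.759 without the 2 farthest mice). The cholinergic list holds Gbx2, which thalamic cells also express and which was highest in DF-1062. In that mouse the FPKM of Chat, which makes acetylcholine, was 5.02, against 7.81 in WT-1061 and 0.914 in DF-1037. In WT-1063, a mouse with high Ngfr, Chat (3.35), Slc5a7 (6.96) and Slc18a3 (2.36) were below their levels in WT-1015 (3.58, 7.77 and 2.52), a mouse with low Ngfr. Gbx2 was 1.85 in WT-1063 against 0.0607 in WT-1015, and Lhx8 (2.81 against 1.41), Isl1 (4.55 against 3.31) and Ecel1 (8.45 against 6.42) were also higher.

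**Figure D2:**
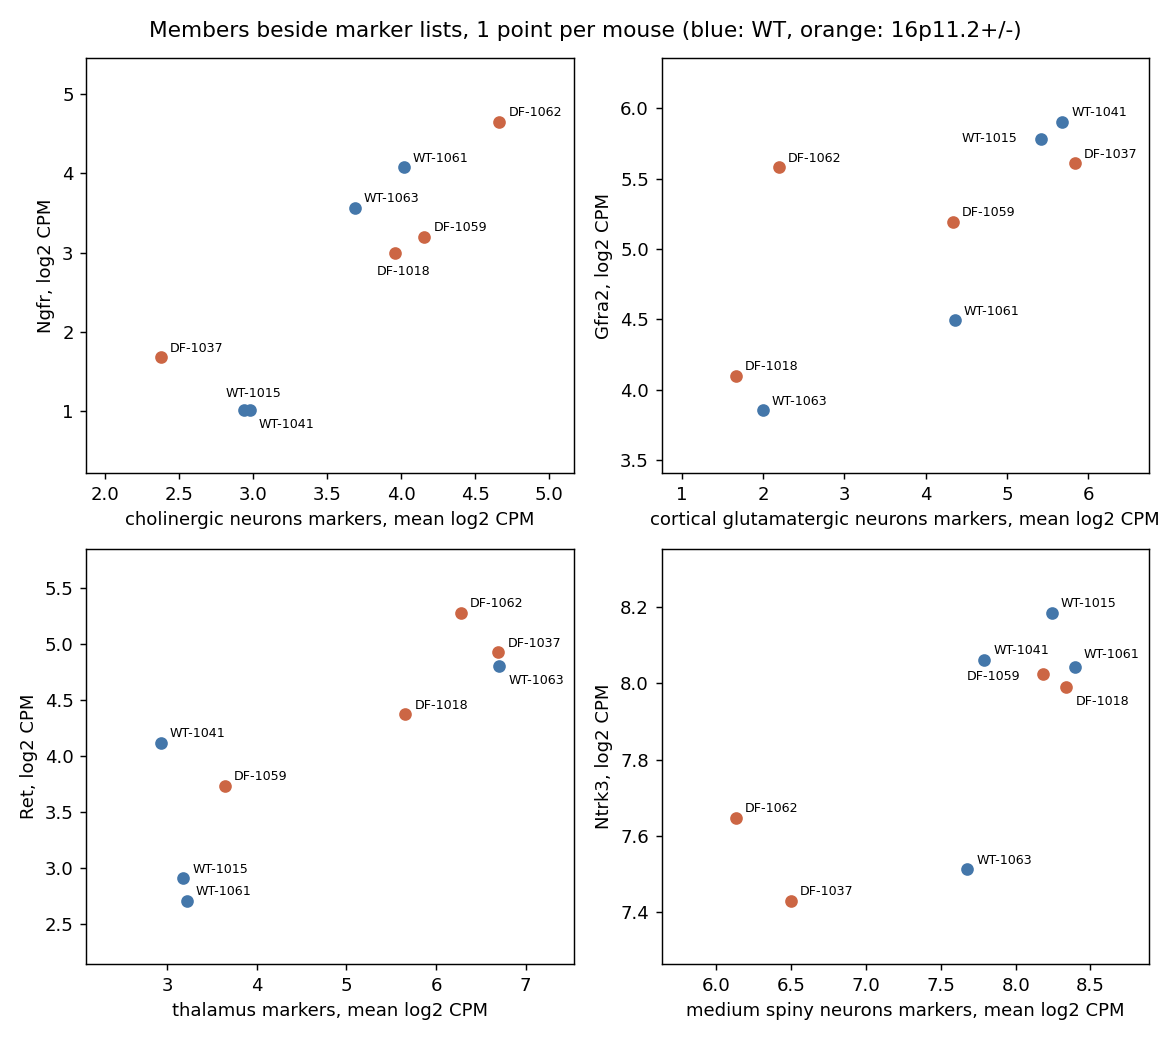
Log2 CPM of 4 genes (vertical) beside the mean log2 CPM of a marker list (horizontal), 1 point per mouse, blue for WT and orange for 16p11.2+/-. Ngfr is higher where cholinergic markers are higher (r = 0.881, adjusted permutation p = 0.180), and 0 of 63 such relations passed after adjustment. Cortical, thalamus and medium spiny neuron markers fall into separate clusters of mice, for which no r is given.

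Gfra1 (ENSMUSG00000025089), which binds GDNF, lies on chromosome 19 from 58235604 to 58455909 (reverse strand), with 7.60% of its exon sequence shared with Gm16277 on the opposite strand. Its FPKM was 9.19, 15.8, 8.77 and 9.50 in WT-1015, WT-1041, WT-1061 and WT-1063, and 10.7, 14.3, 12.5 and 20.2 in DF-1018, DF-1037, DF-1059 and DF-1062. Each 16p11.2+/- mouse lay above 3 of the 4 WT mice, and WT-1041 lay above all 16p11.2+/- mice but DF-1062. The mean was 10.8 ± 3.32 for WT against 14.4 ± 4.15 for 16p11.2+/- mice (SD, n = 4 each, exact two-sided permutation p = 0.229). edgeR gave a log2 fold change of 0.39 (SE 0.23, 95% interval from -0.12 to 0.90, p = 0.12 unadjusted and 0.859 adjusted). Without WT-1041 it was 0.62, with an edgeR p of 0.00950 unadjusted and 0.936 adjusted, and without DF-1062 it was 0.23, with one of 0.310 unadjusted. With DF-1037 and DF-1062 left out it was 0.11, and with the oligodendrocyte markers as a covariate it turned to -0.09. Since these markers differ between the genotypes, their part and that of the genotype cannot be told apart.

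Gfra2 (ENSMUSG00000022103), which binds neurturin, lies on chromosome 14 from 70890120 to 70979838 (forward strand). Its FPKM was 15.2 in WT-1015, 16.9 in WT-1041, 6.22 in WT-1061 and 4.06 in WT-1063, and 4.67, 13.7, 10.3 and 14.2 in DF-1018, DF-1037, DF-1059 and DF-1062. High and low mice were found in both groups, and the means of 10.6 ± 6.398 for WT against 10.7 ± 4.41 for 16p11.2+/- mice (SD, n = 4 each, exact two-sided permutation p = 1) were close. WT-1063 and DF-1018, with the lowest Gfra2, also had the lowest cortical markers, but DF-1062, next in cortical markers, was among the high mice. On the log2 scale the edgeR fold change was -0.01 (SE 0.48, 95% interval from -1.11 to 1.08, adjusted p = 0.996), and its sign changed with the scaling, being 0.02 with library totals. The difference of mean log2 CPM had the other sign as well (5.12 in 16p11.2+/- and 5.01 in WT mice). Among its closest genes over the 8 mice were Arfgap1 (r = 0.979) and Sidt1 (r = 0.967).

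Ret (ENSMUSG00000030110), the signalling kinase that both GFRα subunits share, lies on chromosome 6 from 118151745 to 118197718 (reverse strand). Its FPKM was 1.07, 2.55, 0.929 and 4.11 in WT-1015, WT-1041, WT-1061 and WT-1063, and 2.95, 4.45, 1.95 and 6.04 in DF-1018, DF-1037, DF-1059 and DF-1062. The 4 highest mice were the 4 with high thalamus markers, 1 WT and 3 16p11.2+/- mice, with an FPKM between 2.95 and 6.04 against 0.929 to 2.55 in the other 4. The means were 2.16 ± 1.49 for WT against 3.85 ± 1.79 for 16p11.2+/- mice (SD, n = 4 each, exact two-sided permutation p = 0.229). The fold change from edgeR was 0.80 on the log2 scale (SE 0.50, 95% interval from -0.33 to 1.94), with an adjusted p of 0.859 and an unadjusted one of 0.143. With the thalamus markers as a covariate it was 0.23 (SE 0.39, edgeR p of 0.568 unadjusted), with the medium spiny neuron markers 0.30, and with the oligodendrocyte markers 0.07 (SE 0.64). Within the 4 mice with low thalamus markers it was 0.35, and within the 4 with high thalamus markers 0.13, with a lone mouse of 1 genotype in each. Without WT-1063, the WT mouse with thalamus markers, it was 1.31, with an edgeR p of 0.0204 unadjusted and 0.545 adjusted. Capn10 (r = 0.990), Pappa (r = 0.986) and Crim1 (r = 0.981) were closest to Ret over the 8 mice.

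**Figure D3:**
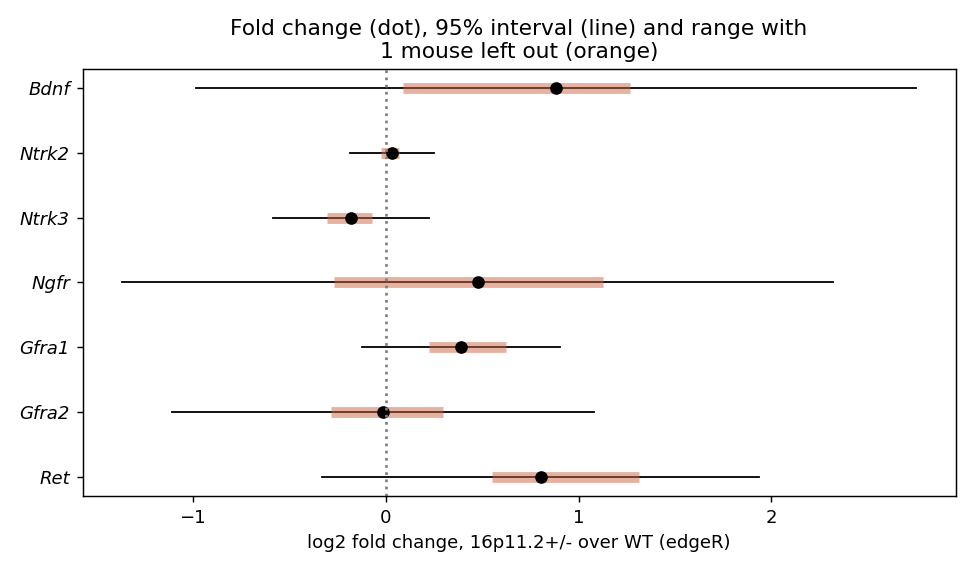
Log2 fold change of the 7 tested genes in 16p11.2+/- over WT striatum (dots, edgeR), with 95% intervals (lines) and the range when 1 mouse is left out (orange bars). Every interval includes 0, and it is narrowest for Ntrk2 (-0.19 to 0.25) and widest for Bdnf (-0.98 to 2.75).

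Of the 7 tested genes, 5 had a positive log2 fold change, as had 8810 of all 18294 tested genes, and the median was 0.39, against -0.01 for all. The sign of Bdnf, Ntrk2, Ngfr and Gfra1 among these 5 turned under at least 1 alternative. The intervals of Ntrk2, Ntrk3 and Gfra1 lie between -1 and 1, while those of Bdnf, Ngfr, Gfra2 and Ret reach past 1. The median SD of log2 CPM within groups was 0.852 for the 7 genes and 0.250 for all tested genes. The SDs of Bdnf, Ngfr, Gfra2 and Ret were at the 99.1, 98.9, 95.3 and 94.99 percentiles of all tested genes, those of Gfra1 and Ntrk3 at the 67.4 and 57.4 percentiles. The closest genes to Ntrk2 over the 8 mice were Rhbdd2 (r = 0.967), Sin3b (r = 0.965) and Zfp956 (r = 0.964), to Gfra1 Ssh3 (r = 0.983), Zfp623 (r = 0.973) and Pfkfb4 (r = 0.972), and to Ngfr Tuba1c (r = 0.970) and 2 transcripts with no symbol.

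**Figure D4:**
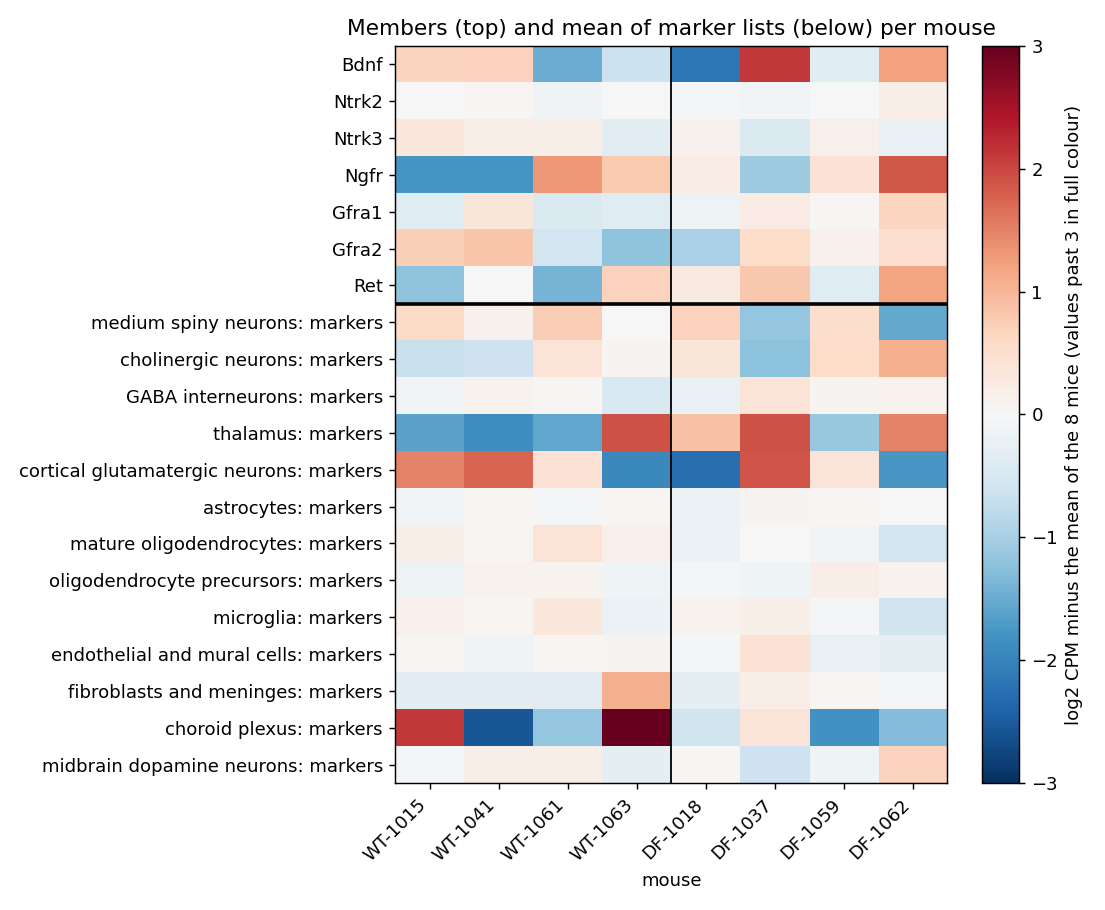
Log2 CPM minus the mean of the 8 mice for the 7 tested genes (upper rows) and for the means of 13 marker lists (lower rows), with WT mice left of the line and 16p11.2+/- mice right of it. Red is above and blue below the mean of the gene or list. Bdnf, Ngfr, Gfra2 and Ret differ between mice of 1 genotype, as do thalamus, cortical and choroid plexus markers, while Ntrk2 and astrocyte markers stay near 0.

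The other genes of the pathway were read from lists of 114 symbols, of which 106 were tested. Of these, 1 was lower in 16p11.2+/- striatum at an adjusted p under 0.05 (0.0929% of all tested genes were) and 0 were higher (0.0164% of all). The 1 gene was Mapk3, which encodes the kinase ERK1 below Trk and RET and lies in the deleted interval. Its FPKM was 40.5 ± 4.80 for WT against 21.4 ± 0.700 for 16p11.2+/- mice (SD, n = 4 each), with a log2 fold change of -0.94 (SE 0.10, edgeR p of 0.00986 adjusted over all genes). The adjusted p in edgeR was 0.0573 without WT-1041, 0.0606 without DF-1018, 0.0631 without DF-1059, 0.0532 with thalamus markers and 0.533 with oligodendrocyte markers as a covariate, while the log2 fold change stayed between -0.99 and -0.86 with any 1 mouse left out and was -0.90 with the thalamus and -0.79 with the oligodendrocyte covariate. At an unadjusted p under 0.05 there were 3 of the 106 genes, or 2.83%, against 4.32% of all tested genes.

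The other ligands were scarce, and 4 of 8 passed the expression filter, with Ntf5, Nrtn, Artn and Pspn below it. Pspn, with only 1 to 10 reads per mouse, had an FPKM without overlap between the groups, as had 2.83% of all tested genes. Its FPKM was between 0.644 and 1.38 in WT and between 0.128 and 0.550 in 16p11.2+/- mice (exact two-sided permutation p = 0.0286). These values were picked after they were seen. Manf, a neurotrophic factor of the endoplasmic reticulum, had an FPKM of 8.23 ± 1.68 for WT against 9.48 ± 2.23 for 16p11.2+/- mice (SD, n = 4 each). Of 13 tested receptors and co-receptors, 0 passed. Sort1, the gene of the proneurotrophin receptor sortilin, had 64.6 ± 3.73 for WT against 59.3 ± 11.4 for 16p11.2+/- mice (SD, n = 4 each). Sdc3, a syndecan that binds GDNF, had the lowest p of this list (log2 fold change 0.36, edgeR p of 0.0534 unadjusted and 0.859 adjusted).

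Of 10 genes of neurotrophin processing and release, 0 passed. Cpe, carboxypeptidase E, had an FPKM of 581 ± 47.7 for WT against 600 ± 102 for 16p11.2+/- mice (SD, n = 4 each), and Scg2, a granin of secretory granules, had a log2 fold change of 0.48 (edgeR p of 0.0739 unadjusted). Among 29 adaptors and substrates, 0 passed. Shc3, a neuronal Shc adaptor of Trk receptors, had an FPKM between 6.12 and 7.24 in WT and between 7.70 and 9.39 in 16p11.2+/- mice, without overlap (exact permutation test, two-sided, p = 0.0286, the smallest that 4 against 4 mice allow). Its edgeR estimate on the log2 scale was 0.33 (SE 0.10, p of 0.00918 unadjusted and 0.859 adjusted over all genes). Maged1, which binds p75, was the most abundant of these genes, with 86.8 ± 5.12 for WT against 105 ± 37.0 for 16p11.2+/- mice (SD, n = 4 each).

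In the PI3K-AKT arm, 0 of 11 genes passed. Gsk3b, the kinase that AKT inhibits, had a log2 fold change of -0.06, and Akt1 one of 0.15 (edgeR p of 0.0557 unadjusted), with an FPKM of 25.3 ± 1.25 for WT against 28.5 ± 0.579 for 16p11.2+/- mice (SD, n = 4 each). Among 22 factors that act on Bdnf promoters and genes of ERK feedback, 0 passed. Npas4, an activity-induced factor that binds Bdnf promoters, had an FPKM of 6.86 ± 1.278 for WT against 3.57 ± 1.32 for 16p11.2+/- mice (SD, n = 4 each), with DF-1018, DF-1059 and DF-1062 under the lowest WT mouse (exact two-sided permutation p = 0.0571). Its log2 fold change of -0.96 (SE 0.25) had an edgeR p of 0.00407 unadjusted and 0.859 adjusted over all genes. Vgf, a neurotrophin-induced peptide gene, had 43.4 ± 6.49 for WT against 50.6 ± 12.4 for 16p11.2+/- mice (SD, n = 4 each). Together, the FPKM of 4 of the 106 genes did not overlap between the groups (Mapk3, Shc3, Akt1 and Creb1, the last named after its values were seen), against 2.83% of all tested genes.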

How the data were processed

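A separate RNA library of each mouse was made from striatum, 4 of each genotype. Per the paper's methods, the authors filtered reads, mapped them with Hisat2 and deposited raw counts per gene from Htseq-count. The submitters' processing notes name Bowtie 0.12.2 and the builds mm8 and mm9, with no role. The annotation and the strand setting are not given in the sources used here. The FPKM deposited by the authors is the count divided by a gene length and the total count, and this length was within 1% of the exon length in GENCODE M21 (GRCm38) for 97.4% of 31473 genes compared. A deposited table of the authors' own comparison (group means, fold change, p) and a summary of FPKM in bins were not used.

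The edgeR package (version 4.0.16, R 4.3.3) was run on the counts (TMM, filterByExpr with a minimum count of 10 and total of 15, quasi-likelihood test), adjusted over 18294 genes with the Benjamini-Hochberg method at a threshold of 0.05. Log2 CPM used a prior count of 2. FPKM was compared with exact permutation tests over 70 assignments. Alternatives were DESeq2 1.42.0, limma 3.58.1, other scalings and filters, marker covariates and each mouse left out. The members and gene lists were chosen with earlier results of these data known. The genes named were all 8 members, for each pathway list those past the threshold, the one with the smallest p and the one with the highest mean FPKM, and for each member the 3 genes with the highest correlation. Some genes that this rule names are not reported here. The code was tested on simulated data. Mice of 1 genotype differed by more than counting noise (lowest chi-square over its degrees of freedom 8.07), and each was counted as 1 replicate.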

Additional observations from a re-analysis of the deposited data

Results flagged for a closer look

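In 76 groups of 4 values examined, 8 had 1 mouse far from the other 3, by the gap between it and its neighbour divided by the whole range (Dixon's criterion at 95%). Chance gives this in about 1 of 20 groups. Gfra1 FPKM in WT-1041 had a share of 0.895 (15.8, the rest of the WT mice 8.77 to 9.50). In DF-1062 the share was 0.845 for Maged1 FPKM (160 against 80.0 to 92.5) and 0.860 for Sdc3 FPKM (44.6 against 25.5 to 28.1). Chat FPKM had a share of 0.929 in WT-1061 (7.81 against 3.26 to 3.58) and 0.896 in DF-1037 (0.914 against 5.02 to 5.49). The thalamus marker level had a share of 0.922 in WT-1063 (6.71 against 2.93 to 3.22) and the fibroblast and meninges marker level one of 0.971 in the same mouse (2.81 against 1.40 to 1.44). The endothelial and mural cell marker level in WT-1041 had a share of 0.837 (4.39 against 4.54 to 4.57).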

How the results depend on the processing

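No paired analysis was made because the labels give no litter, batch or other pairing of mice between the genotypes. Under all 25 alternatives 0 of the tested members passed, and their lowest adjusted p in edgeR was 0.545 (Ret without WT-1063). Ret kept its direction in all 25 (0.07 to 1.31). The subsets by thalamus markers, the fit without DF-1037 and DF-1062, and the medium spiny neuron, cholinergic and choroid plexus covariates were chosen after seeing the data. The causes of the shifts were not tested. Each subset by thalamus markers has 1 mouse of one genotype, assumed to vary like the other 3, so its counts and fold changes do not show a dependence on the tissue makeup.

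Genes called over all tested genes numbered 20, but 11 with the thalamus, 1 with the oligodendrocyte and 13 with the choroid plexus covariate, 3 and 0 within the mice with low and high thalamus markers, 11 without DF-1037 and DF-1062, and 8 to 18 with 1 mouse left out. Of the other pathway genes 1 was called, but 0 with the thalamus or oligodendrocyte covariate, in both subsets and without DF-1037 and DF-1062, and 0 to 1 with 1 mouse left out. That gene is Mapk3, whose log2 fold change in these fits was -0.90 and -0.79 with the covariates, -1.0001 and -0.79 in the subsets with low and high thalamus markers and -0.92 without DF-1037 and DF-1062, against -0.94 with all mice.

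The log2 fold change of Bdnf turned to -0.69 with the medium spiny neuron covariate, -0.63 within low thalamus markers (1.91 within high) and -1.10 without DF-1037 and DF-1062. For Ntrk2 it was -0.16 with the oligodendrocyte covariate, -0.022 with the medium spiny neuron covariate, -0.018 without DF-1037 and DF-1062, and -0.024 to 0.071 with 1 mouse left out. For Ntrk3 it was 0.084 with the thalamus covariate, 0.22 within high thalamus markers and 0.033 without DF-1037 and DF-1062. For Ngfr it was -0.0073 with the cortical, -0.42 with the oligodendrocyte and -0.064 with the cholinergic covariate, and -0.27 to 1.12 with 1 mouse left out. Gfra1 was at -0.086 with the oligodendrocyte covariate. Gfra2 was at 0.13 with limma-voom, 0.020 with library totals, 0.11 and 0.13 on log2 FPKM with pseudocounts of 1 and 0.1, 0.51, 0.45 and 0.24 with the thalamus, cortical and cholinergic covariates, 1.43 within high thalamus markers, and -0.28 to 0.30 with 1 mouse left out. With 1 mouse left out, the difference of mean FPKM ranged from -1.06 to 2.73 for Ntrk2, -0.408 to 1.85 for Ngfr and -2.04 to 2.24 for Gfra2.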
